A study of Mus musculus with 12 samples.

Results

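The imprinted growth genes described here are H19, Igf2, Cdkn1c, Plagl1, Meg3, Dlk1, Grb10, Mest, Peg10 and Peg3. They were taken as the rows of the count table whose Ensembl identifier maps to one of these symbols, which found all 10 genes among the 41214 of the table. Endothelial cells were sorted from the ventricles of mouse embryos, as an endocardial population (the lining of the heart chambers) and a coronary population (the vessels of the heart wall), and poly(A) RNA was sequenced in 12 libraries. All sorted cells were viable CD31+ cells without Ter119 or CD45. At E13.5 the embryos were Nes-gfp (Tg/0), and hearts positive for GFP were collected. The endocardial gate was GFP-low/Emcn-high and the coronary gate GFP+, with 4 libraries each. At E17.5 the embryos carried Nes-Gfp (Tg/0), the tamoxifen-dependent recombinase Nes-CreER (Tg/0) and the Tomato reporter R26 (tom/+), and 0.1 ug tamoxifen had been given at E15.5. There the endocardial gate was GFP+, with 2 libraries. The coronary gate was Emcn-low, either Tomato+ or Tomato-/GFP-low, with 2 libraries whose labels do not say which of those 2 gates they came from. The labels do not say how many embryos went into a library, so a p-value here measures library-to-library spread, which may be technical. Genotype, tamoxifen, gate and batch differ between the stages and cannot be told apart from embryonic age. In bulk RNA, fewer cells of a type and less RNA per cell cannot be told apart either.

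Imprinted genes are read mainly from 1 parental copy, fixed by DNA methylation set in the germ line. Many of them act on fetal growth: several paternally read genes, such as Igf2, promote it, and several maternally read ones, such as Cdkn1c, restrain it. They lie in clusters that share control elements, so that a protein-coding gene and a noncoding RNA of 1 cluster are often read from opposite parental copies. A bulk library without allele counts gives the sum of both copies.

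Each library held between 14973633 and 27360653 expected counts. Values below are CPM, a gene's share of its library's counts on a fixed scale, with TMM scaling between libraries. The 9 endocardial markers (Npr3, Cdh11, Hand2 and others) summed to 4847 to 5145 CPM in E13 endocardial libraries against 1260 to 1674 in E13 coronary ones, and to 6026 to 6302 against 235.6 to 249.95 at E17. At E17 all 9 were lower in coronary libraries. At E13, 5 of the 9 were lower, Bmp6 was higher (25.7 and 41.8 CPM in endocardial and coronary libraries), and Gata4, Gata5 and Nfatc1 did not pass. The 8 capillary markers summed to 82.8 to 114 CPM in E13 endocardial and 845 to 1667 in E13 coronary libraries, and to 420.1 to 424.9 and 6520 to 8625 at E17. The 11 fibroblast markers (Col1a1, Dcn, Pdgfra and others) summed to 1849 to 2472 CPM in the 6 endocardial libraries. In E13 coronary replicates 1 to 4 they summed to 2747, 5392, 7172 and 5001 CPM, and in E17 coronary replicates 1 and 2 to 4920 and 2240. No marker of these lists was at 0 in every library, and 6 leukocyte markers together stayed between 3.71 and 18.3 CPM. The sum of 6 erythroid markers ran from 18.1 to 559 CPM over the libraries, and that of 8 cardiomyocyte markers from 115 to 317 CPM.

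4 of the genes contain microRNA hairpins on their own strand. The mature sequences are shown because a level of the host transcript is the only reading of these loci here: Mir675, Mir483, Mir770, Mir1906-1 and Mir335 had no counts in the poly(A) libraries. They come from RefSeq (GRCm38.p6), 5′ to 3′, with the seed (bases 2 to 8) in capitals.
miR-675-5p, exon of H19: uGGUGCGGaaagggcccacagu
miR-675-3p, exon of H19: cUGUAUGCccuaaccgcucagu
miR-483-5p, intron of Igf2: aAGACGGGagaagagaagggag
miR-483-3p, intron of Igf2: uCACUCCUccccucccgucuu
miR-770-5p, exon of Meg3: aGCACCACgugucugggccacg
miR-770-3p, exon of Meg3: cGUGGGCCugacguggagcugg
miR-1906, exon of Meg3: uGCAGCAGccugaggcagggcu
miR-335-5p, intron of Mest: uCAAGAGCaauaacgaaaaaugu
miR-335-3p, intron of Mest: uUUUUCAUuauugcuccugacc
The 9 sequences had 9 different seeds. The seed of miR-1906 was shared with 1 other mature entry of the mouse RefSeq table, and those of the other 8 with none. Entries were counted rather than distinct microRNAs, so the shared one may be another copy of miR-1906.

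In E13 embryos, 5 of the 10 genes were lower in coronary than in endocardial libraries (H19, Igf2, Cdkn1c, Plagl1 and Dlk1) and 3 were higher (Meg3, Grb10 and Peg10), by edgeR's quasi-likelihood test at a Benjamini-Hochberg adjusted p below 0.05. Mest and Peg3 did not pass. That is 8 of 10 called, where 60% of all 15171 tested genes were called (30.1% higher and 29.9% lower), so a call on its own says little at this contrast. The members' median log2 fold change was -0.53, and that of all tested genes -0.02.

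At E17, 9 of the 10 were called, against 52.6% of all tested genes (26.5% higher and 26.1% lower). H19, Igf2, Cdkn1c, Plagl1, Dlk1 and Peg3 were lower in coronary libraries, Grb10, Mest and Peg10 were higher, and Meg3 did not pass. The median of the members was -0.99, and that of all tested genes -0.01.

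Within the endocardial population, H19, Igf2 and Peg3 were higher at E17 than at E13, and Cdkn1c, Grb10 and Peg10 were lower. These 6 of 10 compare with 31.8% of all tested genes called (16.2% higher and 15.6% lower). Within the coronary population 9 of 10 were called, against 50.1% of all (24.6% higher and 25.6% lower): Dlk1, Grb10 and Mest were higher at E17 and the others except Peg3 were lower. The coronary minus endocardial difference itself changed between the stages for 9 of 10, against 32.7% of all tested genes (16.2% upward and 16.5% downward), with Peg10 the exception. The 4 contrasts between groups share libraries with each other, so they are not separate evidence.

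**Figure D1:**
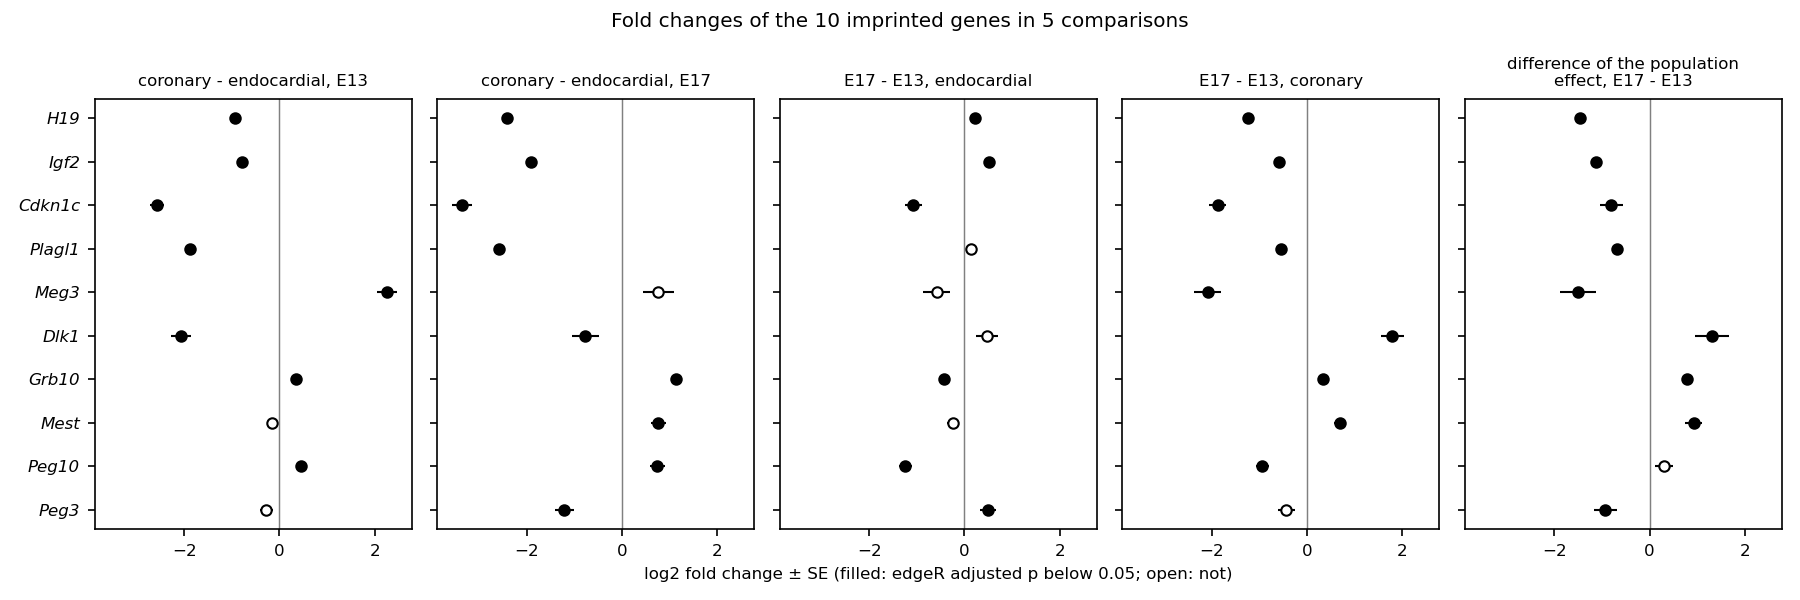
Log2 fold change with its standard error (x axis) of each gene (y axis) in the 2 population comparisons, the 2 stage comparisons and the difference between the population comparisons. Filled points passed an adjusted p of 0.05 and open points did not: the points of H19, Igf2, Cdkn1c and Plagl1 lie left of 0 at both stages, those of Grb10 and Peg10 lie right of it, and Mest, at -0.16 at E13, lies at 0.77 at E17.

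The 10 genes took 6.73% ± 0.19 (SD, n = 4) of all counts in E13 endocardial libraries and 3.95% ± 0.26 (SD, n = 4) in E13 coronary ones. At E17 they took 7.52% and 7.71% of the 2 endocardial libraries and 2.20% and 2.23% of the 2 coronary ones. H19 and Igf2 alone made up 5.58%, 3.26%, 6.73% and 1.47% of the counts, as means of the E13 endocardial, E13 coronary, E17 endocardial and E17 coronary groups. H19 had the highest CPM of any gene in all 10 libraries outside the E17 coronary group, where it ranked 3 in both libraries.

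**Figure D2:**
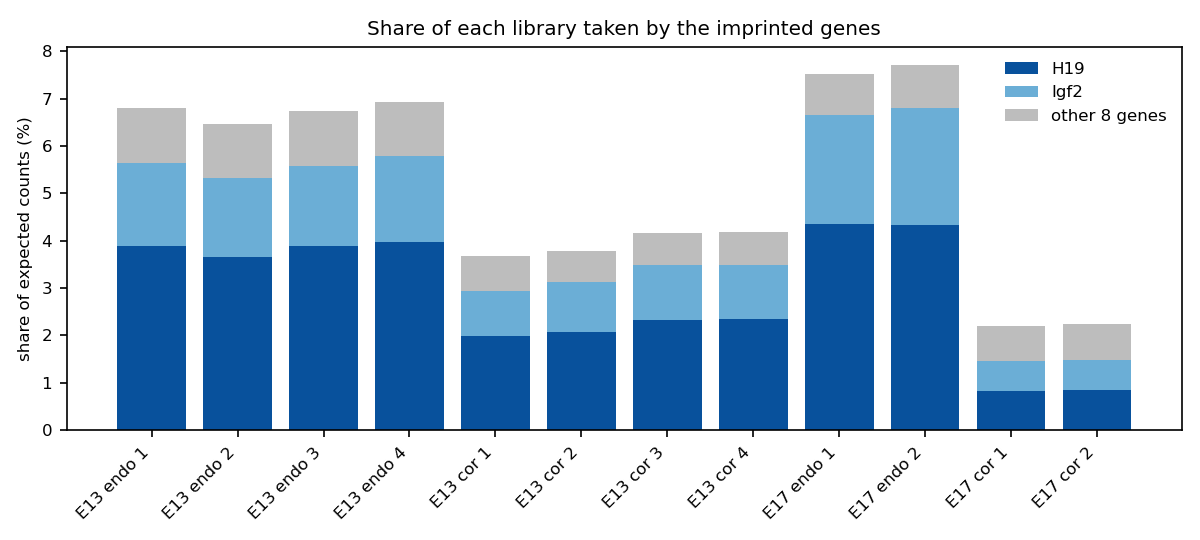
Share of each library's expected counts (y axis, percent) taken by H19, Igf2 and the other 8 genes, for each of the 12 libraries (x axis). The stacks reach 6.47 to 6.92% in E13 endocardial, 3.68 to 4.18% in E13 coronary, 7.52 to 7.71% in E17 endocardial and 2.20 to 2.23% in E17 coronary libraries.

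Levels of different genes were compared as CPM per kb of annotated exon. That length joins all annotated exons of a gene, so the order also depends on which transcripts are annotated. Overlap between libraries does not measure this. In E13 endocardial libraries the order ran from H19 (15890 CPM per kb) and Igf2 (3076) through Cdkn1c (1839), Mest (922), Plagl1 (332), Grb10 (84.7), Peg10 (36.8), Peg3 (35.7) and Dlk1 (26.3) to Meg3 (1.88). Only Peg10 and Peg3 had overlapping ranges among neighbours in that order. In E13 coronary libraries Mest (824 CPM per kb) stood above Cdkn1c (311) and Grb10 (108) above Plagl1 (89.9), and Meg3 (9.02) stood above Dlk1 (6.24), with no overlap between neighbours. In E17 endocardial libraries the first 6 were in the E13 endocardial order and Peg3 (50.5 CPM per kb), Dlk1 (36.7), Peg10 (15.6) and Meg3 (1.25) followed, again without overlap. In E17 coronary libraries Mest (1334 CPM per kb) stood above Igf2 (1178), and Grb10 (137) above Cdkn1c (84.7) and Plagl1 (61.2). Peg10 (26.2), Peg3 (21.9) and Dlk1 (21.6) overlapped there as neighbours.

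**Figure D3:**
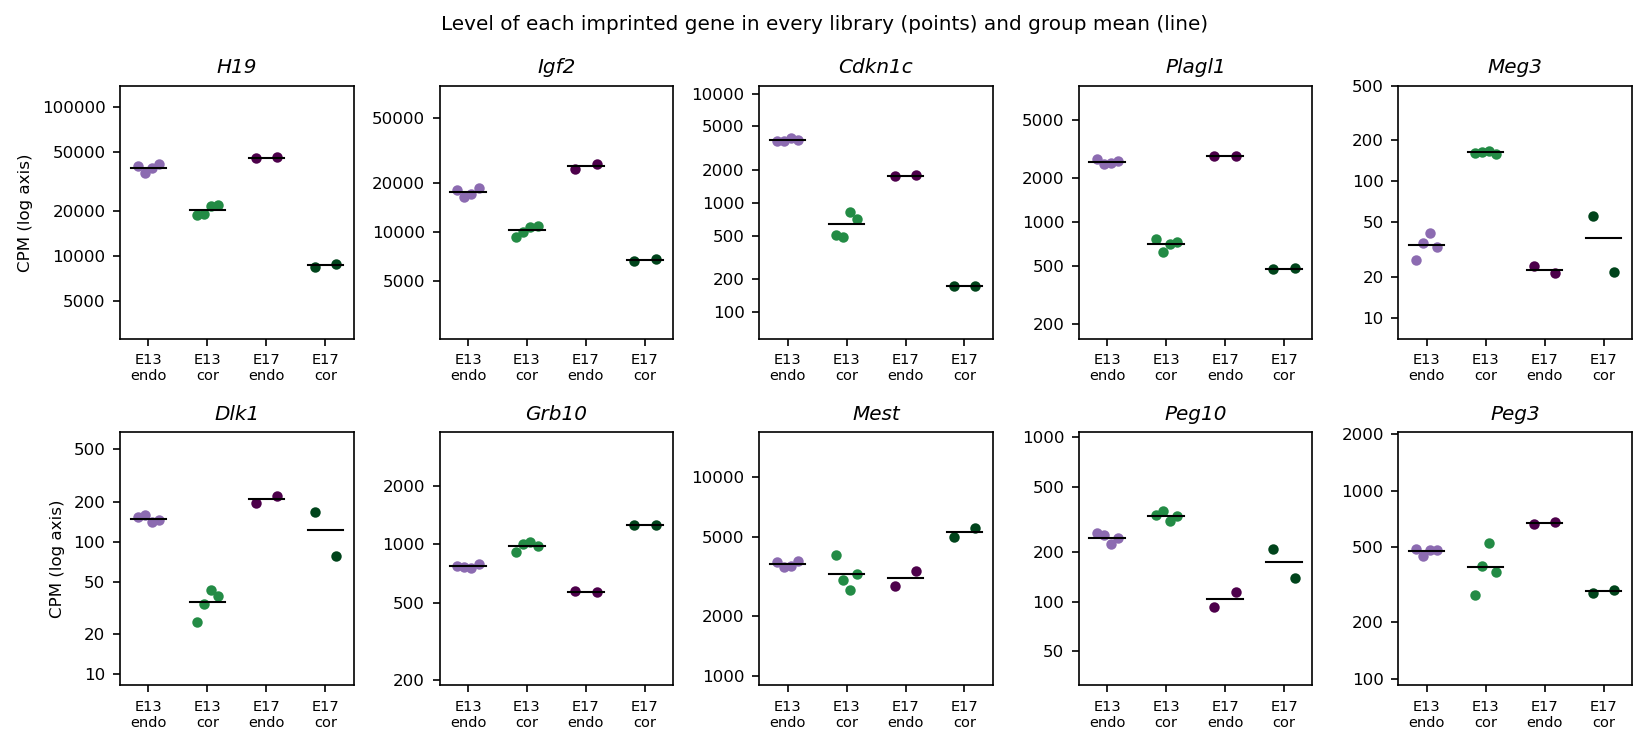
CPM on a log axis (y) of the 10 genes, 1 panel each, in the 4 groups (x; endo, endocardial; cor, coronary), with a point for each library and a line at the group mean. For H19, Igf2, Cdkn1c and Plagl1 all coronary points lie below all endocardial points of the same stage, whereas for Grb10 and Peg10 they lie above.

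H19 is a maternally read noncoding RNA that hosts miR-675 (chr7:142575529-142578143, minus strand, GRCm38, identifier ENSMUSG00000000031). It stood at 39909, 36235, 39129 and 41084 CPM in the E13 endocardial libraries and at 18883, 19242, 21551 and 21983 in the E13 coronary ones. At E17 it stood at 45392 and 46027 CPM in endocardial and at 8381 and 8885 in coronary libraries. The groups did not overlap in any of the 4 comparisons. Coronary libraries were 1.92-fold lower at E13 (log2 -0.94 ± 0.06 SE, edgeR adjusted p = 6.84e-08) and 5.29-fold lower at E17 (-2.40 ± 0.09, edgeR adjusted p = 1.47e-09). Between the stages H19 was 2.37-fold lower in E17 than in E13 coronary libraries (-1.24 ± 0.08), while in endocardial libraries it was 0.23 ± 0.07 higher (edgeR adjusted p = 0.0282). That small endocardial rise did not pass without a filter on low counts (edgeR adjusted p = 0.0883) or without E13 endocardial replicate 2 or 3 or either E17 endocardial library (0.063 to 0.137).

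Igf2, the paternally read gene of a fetal growth factor that signals through Igf1r and Insr, lies in the same cluster (chr7:142650766-142666816, minus strand). Its levels were 18151, 16453, 17139 and 18663 CPM in E13 endocardial libraries and 9275, 9967, 10760 and 10817 in E13 coronary ones. At E17 they were 24277 and 26116 CPM in endocardial and 6658 and 6831 in coronary libraries. Igf2 had the same order of groups as H19, with no overlap in any comparison. Its coronary level was 1.73-fold lower at E13 (log2 -0.79 ± 0.06, edgeR adjusted p = 3.08e-07) and 3.74-fold lower at E17 (-1.90 ± 0.09, edgeR adjusted p = 6.1e-09). It was 0.52 ± 0.07 higher at E17 than at E13 in endocardial libraries (edgeR adjusted p = 0.000178). In coronary libraries it was lower at E17 (-0.60 ± 0.07, edgeR adjusted p = 3.13e-05).

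The log2 ratio of H19 to Igf2 CPM, read only for its change between groups because the transcripts differ in length, was 1.14, 1.14, 1.19 and 1.14 in E13 endocardial libraries and 1.03, 0.95, 1.00 and 1.02 in E13 coronary ones. All 4 coronary ratios were below all 4 endocardial ones, with a difference of -0.15 (exact two-sided permutation test over 70 arrangements, p = 0.0286, the smallest it can give). With libraries paired by batch, an exact sign-flip test cannot go below 0.125, the value it gave. At E17 the ratio was 0.90 and 0.82 in endocardial and 0.33 and 0.38 in coronary libraries, with no test for groups of 2. Igf2os, annotated opposite to Igf2 and overlapping it, averaged 191, 95.7, 149 and 26.0 CPM in E13 endocardial, E13 coronary, E17 endocardial and E17 coronary libraries. The library kit does not mark strand, so reads of Igf2 and Igf2os cannot be told apart where they overlap. Igf2os was -0.999 ± 0.059 at E13 and -2.52 ± 0.09 at E17 in coronary against endocardial libraries. Unlike Igf2, its endocardial level was lower at E17 than at E13 (-0.36 ± 0.07, edgeR adjusted p = 0.00231).

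Other genes within 500 kb did not all share the direction of H19. Of 15 tested neighbours of H19, 9 were called at E13 and 5 of these were lower. Over all tested genes 60% were called at E13 (30.1% higher and 29.9% lower), so these counts say little on their own. Among those above 10 CPM, the lysosomal protease gene Ctsd was lower in coronary libraries (-0.83 ± 0.06 at E13 and -1.76 ± 0.08 at E17), whereas Dusp8 was higher (1.49 ± 0.11 and 1.28 ± 0.15) and Lsp1 was higher (0.93 ± 0.21 and 0.81 ± 0.30). Cd81 and Ifitm10 changed sides: Cd81 stood at -0.43 ± 0.05 at E13 and 0.51 ± 0.08 at E17, and Ifitm10 at 1.67 ± 0.17 and -2.94 ± 0.28.

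Cdkn1c, a maternally read inhibitor of cyclin-dependent kinases, lies in the neighbouring Kcnq1 cluster (chr7:143458339-143461050, minus strand). It stood at 3649, 3709, 3913 and 3727 CPM in E13 endocardial and at 512, 484, 827 and 717 in E13 coronary libraries. Its E17 levels were 1766 and 1789 CPM in endocardial and 173 and 172 in coronary libraries. The groups were separate in all 4 comparisons, and E13 coronary replicates 3 and 4 were higher than replicates 1 and 2. Coronary libraries were 5.90-fold lower at E13 (log2 -2.56 ± 0.15, edgeR adjusted p = 3.13e-08) and 10.3-fold lower at E17 (-3.36 ± 0.21, edgeR adjusted p = 9.34e-08). Cdkn1c was the only one of H19, Igf2, Cdkn1c and Plagl1 to be lower at E17 in the endocardial population too (-1.08 ± 0.18), beside -1.88 ± 0.19 in the coronary one. The change of the population difference (-0.80 ± 0.24, edgeR adjusted p = 0.0224) did not pass without any 1 of the 4 E17 libraries (0.0613 to 0.0759).

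Slc22a18, a transporter gene beside Cdkn1c that is also read mainly from the maternal copy, was low and moved in the same direction: 6.81 CPM in E13 endocardial libraries and 0.917 in E13 coronary ones (-2.88 ± 0.16), and 5.77 and 0.479 at E17 (-3.57 ± 0.26). Kcnq1ot1, the paternally read noncoding RNA of the cluster, was also lower in coronary libraries (-1.22 ± 0.11 at E13 and -0.74 ± 0.16 at E17). Kcnq1, the potassium channel gene on the opposite strand to Kcnq1ot1, was lower at E13 (-1.43 ± 0.11) and higher at E17 (0.78 ± 0.15), and the 2 cannot be told apart where they overlap. Nap1l4 was slightly higher at both stages (0.16 ± 0.04 and 0.35 ± 0.06).

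Plagl1, a paternally read zinc-finger transcription factor known to act on other imprinted genes, lies on chromosome 10 (chr10:13060504-13131694, plus strand). Its levels were 2712, 2500, 2556 and 2607 CPM in E13 endocardial libraries and 763, 620, 705 and 725 in E13 coronary ones. At E17 they were 2866 and 2831 CPM in endocardial and 476 and 481 in coronary libraries. Endocardial and coronary values stood far apart at both stages. Plagl1 was 3.69-fold lower in coronary libraries at E13 (log2 -1.88 ± 0.06, edgeR adjusted p = 1.09e-09) and 5.95-fold lower at E17 (-2.57 ± 0.09, edgeR adjusted p = 1.13e-09). In endocardial libraries the stage difference of 0.13 ± 0.07 did not pass (edgeR adjusted p = 0.176), although the 2 E17 libraries were above all 4 E13 ones, and in coronary libraries it was -0.55 ± 0.07. Phactr2, which lies within 500 kb of Plagl1 and binds actin and protein phosphatase, had a similar contrast at E13: 432 and 120 CPM in endocardial and coronary libraries (-1.85 ± 0.06), then 617 and 165 at E17 (-1.90 ± 0.08). Unlike Plagl1, Phactr2 was higher at E17 than at E13 in both populations (0.51 ± 0.07 and 0.46 ± 0.07). Sf3b5, a splicing factor gene nearby, was lower in coronary libraries by less (-0.32 ± 0.05 and -0.75 ± 0.08), and so was Ltv1, between Plagl1 and Phactr2 (-0.26 ± 0.05 and -0.79 ± 0.07). Utrn went the other way: it was not called at E13 and was higher in coronary libraries at E17 (177 and 308 CPM, 0.80 ± 0.09).

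On chromosome 12 the paternally read Dlk1 and the maternally read Meg3, which belong to a single cluster, had opposite contrasts at E13. The windows of 250 bases before the start of Dlk1 and of Meg3 are shown because these 2 genes moved apart. They are RefSeq sequence (GRCm38.p6, plus strand), with CG dinucleotides, the sites of vertebrate DNA methylation, in capitals. Methylation was not measured here.
Dlk1, chr12:109452573-109452822: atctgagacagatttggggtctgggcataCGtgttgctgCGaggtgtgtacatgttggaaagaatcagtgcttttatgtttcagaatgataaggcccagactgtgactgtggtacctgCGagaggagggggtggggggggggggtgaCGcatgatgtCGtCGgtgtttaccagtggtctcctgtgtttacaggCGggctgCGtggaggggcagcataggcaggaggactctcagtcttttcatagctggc
Meg3, chr12:109540746-109540995: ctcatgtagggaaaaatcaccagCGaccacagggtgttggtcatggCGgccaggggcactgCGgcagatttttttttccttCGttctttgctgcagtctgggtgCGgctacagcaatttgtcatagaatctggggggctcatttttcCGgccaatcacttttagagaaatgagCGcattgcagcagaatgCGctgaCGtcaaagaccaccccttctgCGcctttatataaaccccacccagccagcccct
The Dlk1 window held 8 CG and the Meg3 window shown 10, and the median over 32851 such RefSeq windows was 6. The Meg3 window held 1 TGACGTCA, the palindrome known as a cAMP response element, which reads the same on both strands. It ended 49 bases before the window's end. The Dlk1 window held none, and 1.55% of all windows held it, among them 1 other of the members' 14 windows, at Peg3. Another Meg3 window, chr12:109545148-109545397 within the gene, is not shown. It held 0 CG and no such palindrome.

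Dlk1, a transmembrane protein of the Notch ligand family that is read from the paternal copy (chr12:109452823-109463336), stood at 152, 158, 139 and 146 CPM in E13 endocardial and at 24.9, 34.1, 43.3 and 38.9 in E13 coronary libraries. At E17 it stood at 194 and 221 CPM in endocardial and at 167 and 77.2 in coronary libraries. The E13 groups were far apart, and the 2 E17 coronary libraries differed more from each other than any other pair of the same group did in this gene. Coronary libraries were 4.22-fold lower at E13 (log2 -2.08 ± 0.21, edgeR adjusted p = 3.99e-06). At E17 the difference was -0.77 ± 0.28 (edgeR adjusted p = 0.0376). It did not pass by DESeq2 (adjusted p = 0.0546) or in a fit of the E17 groups alone (edgeR adjusted p = 0.0884), and without E17 coronary replicate 2 it was -0.31 (edgeR adjusted p = 0.296). It also missed the threshold without either E17 endocardial library (0.0707 and 0.149) and without E13 coronary replicate 2 or 4 (0.0509 and 0.0513). Between the stages, coronary Dlk1 rose 3.45-fold (1.79 ± 0.24, edgeR adjusted p = 6.72e-05), with a log2 rise of 1.13 without E17 coronary replicate 1 (0.000997) and 2.24 without replicate 2 (6.63e-06). The change of the population difference (1.31 ± 0.35, edgeR adjusted p = 0.0127) was 0.65 without E17 coronary replicate 1 (edgeR adjusted p = 0.0888) and 1.22 without E17 endocardial replicate 1 (0.0611).

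Meg3 is the maternally read noncoding RNA of that cluster (chr12:109541001-109571726, plus strand). It was at 26.5, 35.1, 41.7 and 32.9 CPM in E13 endocardial and at 162, 165, 167 and 158 in E13 coronary libraries. At E17 it was at 24.1 and 21.1 CPM in endocardial and at 55.7 and 21.6 in coronary libraries. The 4 E13 coronary libraries were above all 8 others, and at E17 the groups overlapped. Meg3 was 4.80-fold higher in coronary libraries at E13 (log2 2.26 ± 0.22, edgeR adjusted p = 2.41e-06), and 4.25-fold lower in E17 than in E13 coronary libraries (-2.09 ± 0.28, edgeR adjusted p = 6.94e-05). That stage difference was -2.92 without E17 coronary replicate 1 (edgeR adjusted p = 2.39e-06) and -1.55 without replicate 2 (8.96e-05). At E17 the population difference of 0.76 ± 0.32 did not pass (edgeR adjusted p = 0.0631). It passed with the batch as a block (0.68, edgeR adjusted p = 0.0436) and without E17 coronary replicate 2 (1.302, 0.000217), but was -0.045 without E17 coronary replicate 1 (edgeR adjusted p = 0.884). The change of the difference between stages was -1.50 ± 0.38 (edgeR adjusted p = 0.0103, and 0.0508 without E17 endocardial replicate 1).

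Rian, a maternally read noncoding RNA downstream of Meg3 that hosts small nucleolar RNAs, moved with Meg3. It stood at 33.9, 33.4, 42.3 and 37.6 CPM in E13 endocardial and at 172, 179, 201 and 192 in E13 coronary libraries (2.34 ± 0.18, edgeR adjusted p = 4.07e-07). At E17 it stood at 19.2 and 18.7 against 83.2 and 37.9 CPM (1.67 ± 0.27, edgeR adjusted p = 0.000228), without overlap. Mirg, a maternally read microRNA host gene, was higher in coronary libraries at E13 at low levels (1.11 and 3.32 CPM, 1.58 ± 0.31). At E17 its difference of -0.60 ± 0.48 did not pass (edgeR adjusted p = 0.317), and the groups overlapped. Rtl1, a paternally read gene derived from a retrotransposon, was lower in coronary libraries like Dlk1 (1.22 and 0.523 CPM, -1.18 ± 0.42 at E13; 1.61 and 0.248 CPM, -2.64 ± 0.67 at E17). Begain was also lower (-0.55 ± 0.22 and -2.02 ± 0.35). For both, the E13 groups overlapped. Dio3, a paternally read deiodinase gene of the cluster, lay on the side of Meg3 rather than of Dlk1: it had 0 counts in all 6 endocardial and both E17 coronary libraries and 32 counts in the 4 E13 coronary ones, at 0.216 to 0.605 CPM (edgeR adjusted p = 0.00253 at E13). The 4 E13 endocardial log2 ratios of Meg3 to Dlk1 CPM lay between -2.52 and -1.74 and the 4 coronary ones between 1.95 and 2.70, and at E17 they were -3.01 and -3.39 against -1.59 and -1.84.

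**Figure D4:**
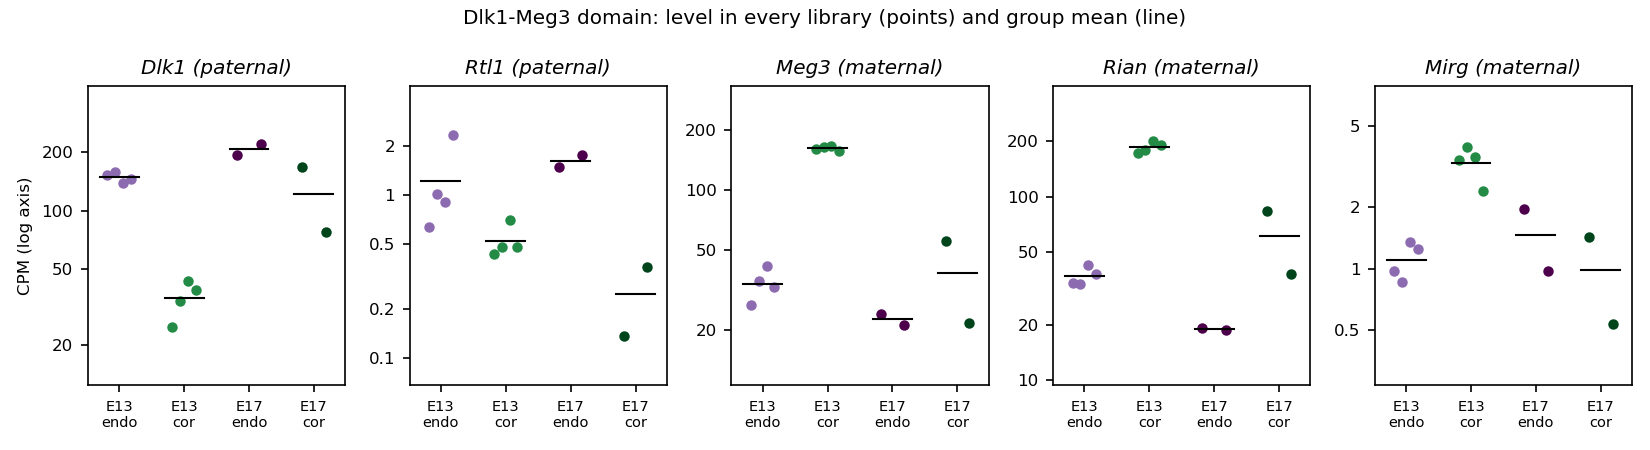
CPM on a log axis (y) of the paternally read Dlk1 and Rtl1 and the maternally read Meg3, Rian and Mirg in the 4 groups (x), with a point for each library and a line at the group mean. At E13 the coronary means lie below the endocardial ones for Dlk1 (149 and 35.3) and above them for Meg3 (34.0 and 163), and in the E17 coronary group replicate 1 lies above replicate 2 for Dlk1, Meg3, Rian and Mirg.

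Grb10, an adaptor protein that binds insulin and IGF receptors and restrains growth, had the smallest SE of the 10 genes in the E13 population comparison (chr11:11930508-12038683, minus strand). It stood at 775, 759, 757 and 788 CPM in E13 endocardial and at 914, 1007, 1030.2 and 982 in E13 coronary libraries. Its E17 levels were 575 and 566 CPM in endocardial and 1249.9 and 1249.0 in coronary libraries. All coronary values exceeded all endocardial ones at both stages. The difference was small at E13 (log2 0.35 ± 0.04, edgeR adjusted p = 1.98e-05) and larger at E17 (1.13 ± 0.06, 2.19-fold, edgeR adjusted p = 2.84e-08), with a change of 0.78 ± 0.08 (edgeR adjusted p = 1.2e-05). Its stage differences were opposite in sign, -0.43 ± 0.05 in endocardial and 0.35 ± 0.05 in coronary libraries. Fignl1, within 500 kb of Grb10, was also higher in coronary libraries (0.50 ± 0.09 and 1.07 ± 0.13). The listed cluster partner Ddc, at 1.64 to 2.10 CPM, did not pass at either stage (0.07 ± 0.25 and -0.01 ± 0.38). Cobl was higher at E13 at low levels (0.308 and 1.69 CPM, 2.43 ± 0.34) and did not pass at E17 (1.32 ± 0.52, edgeR adjusted p = 0.0507).

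Mest, a paternally read gene of a hydrolase-like membrane protein whose intron holds miR-335 (chr6:30723547-30748465, plus strand), was abundant in every group. Its levels were 3728, 3504, 3543 and 3771 CPM in E13 endocardial libraries and 4036, 3016, 2700.1 and 3251 in E13 coronary ones. At E17 they were 2813 and 3372 CPM in endocardial and 4972 and 5552 in coronary libraries. The E13 groups overlapped (-0.16 ± 0.10, edgeR adjusted p = 0.202), through coronary replicate 1, without which the difference passed at -0.26 (edgeR adjusted p = 0.01). At E17 the coronary libraries were both above the endocardial ones (0.77 ± 0.15, 1.70-fold, edgeR adjusted p = 0.000919), and the change between stages was 0.93 ± 0.18 (edgeR adjusted p = 0.00208). Copg2, a coat protein gene on the opposite strand that overlaps Mest, went from -0.36 ± 0.06 at E13 to 0.33 ± 0.09 at E17, and without strand the overlapping reads cannot be told apart.

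Peg10, a paternally read gene derived from a retrotransposon and needed in the placenta (chr6:4747306-4760517, plus strand), stood at 260.3, 254, 224 and 243 CPM in E13 endocardial and at 339, 357, 312 and 331 in E13 coronary libraries. At E17 it stood at 93.3 and 115 CPM in endocardial and at 210 and 139 in coronary libraries. Coronary libraries were higher without overlap at both stages, by log2 0.45 ± 0.11 at E13 (edgeR adjusted p = 0.00346) and by 0.74 ± 0.16 at E17 (0.00164). Both populations had less Peg10 at E17 (-1.24 ± 0.14 endocardial, -0.94 ± 0.14 coronary), and the change of the population difference did not pass (0.30 ± 0.19, edgeR adjusted p = 0.264). It was -0.030 without E17 coronary replicate 1 (edgeR adjusted p = 0.911) and 0.57 without E17 coronary replicate 2 (0.0153). Of its cluster, Asb4, a maternally read ubiquitin ligase component, had the same signs: 60.6, 125, 26.4 and 71.1 CPM in E13 endocardial, E13 coronary, E17 endocardial and E17 coronary libraries (1.04 ± 0.09 and 1.42 ± 0.13). Sgce, which is read from the paternal copy and starts beside Peg10, had the opposite sign at E13 (-0.53 ± 0.05) and did not pass at E17 (0.17 ± 0.07, edgeR adjusted p = 0.051). Ppp1r9a (-0.89 ± 0.06) and Casd1 (-0.37 ± 0.05) were lower in coronary libraries at E13.

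Peg3, a paternally read zinc-finger gene (chr7:6703892-6730431, minus strand), stood at 492, 449, 483 and 481 CPM in E13 endocardial and at 278, 396, 529 and 370 in E13 coronary libraries. Its E17 levels were 667 and 679 CPM in endocardial and 285 and 298 in coronary libraries. The E13 groups overlapped through coronary replicate 3 (-0.28 ± 0.14, edgeR adjusted p = 0.108), and without it the difference passed at -0.43 (edgeR adjusted p = 0.00268). At E17 Peg3 was 2.31-fold lower in coronary libraries (-1.21 ± 0.20, edgeR adjusted p = 0.000293), without overlap. Its endocardial level was 0.50 ± 0.17 higher at E17 (edgeR adjusted p = 0.0402), a call lost by DESeq2 (adjusted p = 0.0576), with upper-quartile scaling (edgeR adjusted p = 0.0533) and without most single libraries. Zim1, a maternally read zinc-finger gene beside Peg3, was higher in E13 coronary libraries at low levels (1.85 and 5.56 CPM, 1.59 ± 0.31) and did not pass at E17 (-0.56 ± 0.43).

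Several of these genes varied among coronary libraries together with markers of other cells. In the E13 coronary group, replicate 3 had the highest and replicate 1 the lowest level of both Peg3 and Dlk1, and the same 2 replicates had the highest (7172 CPM) and the lowest (2747 CPM) sum of fibroblast markers. Col1a1 alone stood at 285, 786, 1083 and 687 CPM in these 4 libraries, against 9.22 to 24.6 in the E13 endocardial ones. The sums of 9 mural markers (377 to 733 CPM) and of 7 glial and neural crest markers (14.9 to 48.1 CPM) were also lowest in replicate 1 and highest in replicate 3. The sum of the 9 endocardial markers did the same (1260, 1387, 1674 and 1572 CPM in E13 coronary replicates 1 to 4). Like H19, Igf2, Cdkn1c and Dlk1, that sum was higher in replicates 3 and 4 than in replicates 1 and 2. Mest ran the other way, highest in replicate 1 and lowest in replicate 3, and so did the capillary marker sum (1667 and 845 CPM). In the E17 coronary group, replicate 1 exceeded replicate 2 in the fibroblast sum (4920 and 2240 CPM), including Col1a1 (1009 and 449.7 CPM), and in Dlk1, Meg3, Rian and Peg10. The values of H19, Igf2, Cdkn1c, Plagl1, Grb10 and Peg3 in those 2 libraries, given above, were close, and Mest was higher in replicate 2. Of the 11 fibroblast markers, 10 were higher and none lower in E13 coronary than in E13 endocardial libraries, and 6 were higher and 2 lower at E17. The part of any of these cell types, endocardial cells among them, in the levels of the imprinted genes was not tested.

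**Figure D5:**
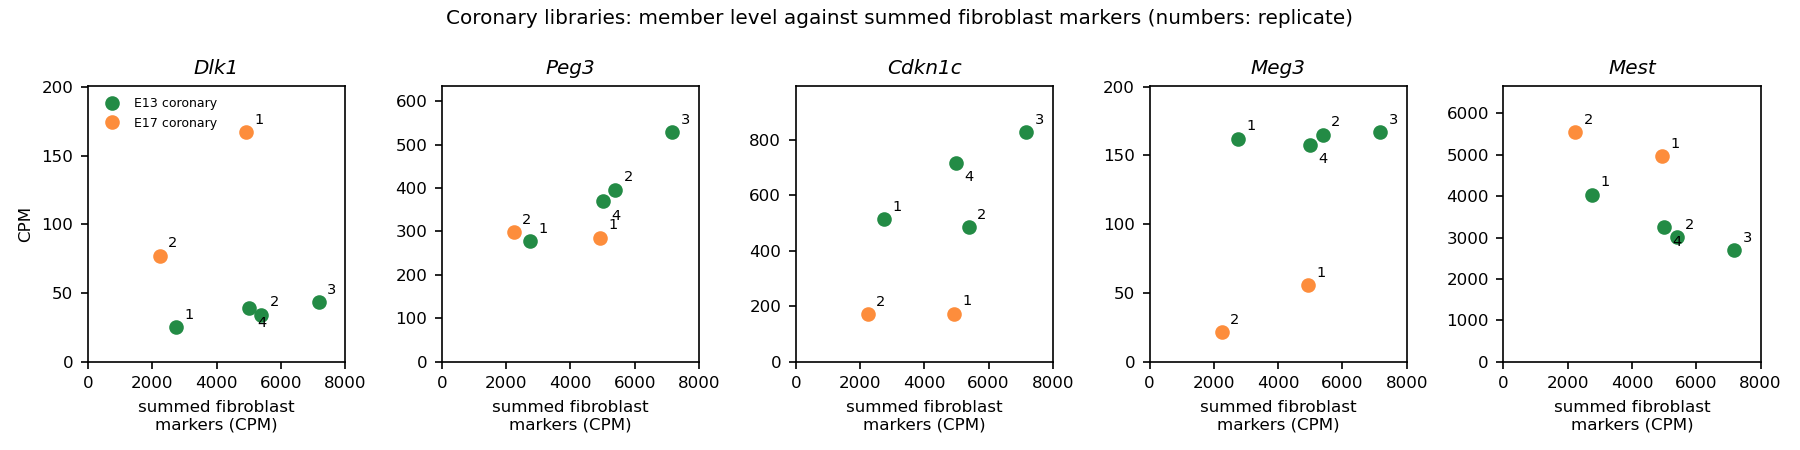
CPM (y axis) of Dlk1, Peg3, Cdkn1c, Meg3 and Mest in the 6 coronary libraries against the summed CPM of 11 fibroblast markers (x axis), with each point numbered by replicate. In the E13 group Dlk1 and Peg3 are highest, and Mest lowest, in replicate 3 at 7172 CPM of markers, while Meg3 stays between 158 and 167 CPM.

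The IGF pathway was followed beyond Igf2 with a list of 20 genes, of which 19 could be tested. At E13, 9 were higher and 5 lower in coronary libraries (median 0.20), and at E17, 5 were higher and 7 lower (median -0.17). These counts, and those of the other lists, stand beside the 60% and 52.6% of all tested genes called at E13 and E17. The medians stand beside -0.02 and -0.01 over all genes. Igf2r, the maternally read receptor that carries Igf2 to the lysosome, averaged 5443, 2865, 4958 and 1447 CPM in E13 endocardial, E13 coronary, E17 endocardial and E17 coronary libraries. It was therefore lower in coronary libraries at both stages (-0.93 ± 0.06 and -1.78 ± 0.08), as Igf2 was, and its difference also widened (-0.85 ± 0.10, edgeR adjusted p = 4.09e-05). Igf1r, a signalling receptor, was slightly higher in coronary libraries (0.26 ± 0.06 and 0.35 ± 0.09). Insr, the other signalling receptor, was lower there. It stood at 98.2, 86.6, 91.1 and 98.8 CPM in E13 endocardial and at 55.2, 60.0, 62.5 and 57.6 in E13 coronary libraries. Its E17 levels were 99.8 and 89.0 CPM in endocardial and 54.6 and 49.8 in coronary libraries. Igf1, the other ligand, did not pass at E13 (-0.28 ± 0.14, edgeR adjusted p = 0.107) and was lower at E17 (-1.34 ± 0.21).

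The IGF binding proteins, which hold the ligands in the extracellular space, were divided. Igfbp5 was lower in coronary libraries (6820 and 1362 CPM, -2.32 ± 0.12 at E13; 5379 and 389.6 CPM, -3.79 ± 0.19 at E17), and so was Igfbp4 (-0.97 ± 0.05 and -1.28 ± 0.08). Igfbp3 was higher (2.80 ± 0.17 and 1.96 ± 0.23), and so was Igfbp7 (0.534 and 31.7 CPM, 5.82 ± 0.21 at E13; 2.26 and 104 CPM, 5.50 ± 0.24 at E17).

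Of the other CDK inhibitors and pocket proteins (8 of 9 listed could be tested), 5 were called higher in coronary libraries at E13, 0 were called lower and 3 did not pass (median 0.28). At E17, 6 were higher and 1 was lower (median 0.72). Cdkn1a rose from 9.82 to 51.4 CPM between the E13 endocardial and coronary groups (2.39 ± 0.15) and stood at 29.6 and 81.3 CPM at E17 (1.46 ± 0.20). Cdkn1b was higher by less (0.28 ± 0.04 and 0.82 ± 0.06). Of 25 cell cycle genes, 17 were higher and 6 lower in coronary libraries at E13, with a median of 0.36, Mki67 at 0.72 ± 0.09 and Ccnd2, a G1 cyclin, at -1.77 ± 0.10. At E17, 19 were higher and 3 lower, with a median of 1.2, Mki67 at 1.88 ± 0.13 and Ccnd2 at -2.19 ± 0.14.

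Of 23 tested genes listed as imprinted outside these clusters, 5 were higher and 12 lower in coronary libraries at E13 (median -0.23). The E17 counts were 5 higher and 14 lower (median -0.72). Whether the listed genes are imprinted in these cells was not measured. Igf2r was also in the IGF list and Dcn among the fibroblast markers. Gnas, which encodes a stimulatory G protein, was among the higher ones (0.46 ± 0.06 and 1.25 ± 0.09), as was the chloride channel gene Ano1 (5.91 ± 0.25 and 2.63 ± 0.37). Nnat, a small membrane protein gene, was higher at E13 (31.0 and 56.9 CPM, 0.87 ± 0.17) and lower at E17 (12.8 and 1.64 CPM, -2.98 ± 0.38). Of 16 tested imprint control factors, Tet1, Tet2 and Tet3 among them, 5 were higher and 7 lower at E13 (median -0.05). Of the same factors, 6 were higher and 6 lower at E17 (median 0.08). Tet1 (-1.16 ± 0.11) and Tet2 (-0.94 ± 0.08) were lower in coronary libraries at E13. The de novo methyltransferase Dnmt3a was lower in coronary libraries (-0.77 ± 0.09 and -1.25 ± 0.13). The maintenance methyltransferase Dnmt1 (0.16 ± 0.05 and 0.82 ± 0.08) and its partner Uhrf1 (0.77 ± 0.08 and 1.299 ± 0.123) were higher.

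The genes whose 4 group means were most like those of H19, by the root mean square distance of centred log2 CPM over the 4 groups among 9478 genes, were B4galt6 (0.07), Oaf (0.09), Plppr2 (0.10), Bche (0.10) and Mxra8 (0.11). Igf2 ranked 92, Plagl1 142 and Peg3 417 by that measure, and Meg3 ranked 8985. Those most like Igf2 were Gaa (0.06), Ralgps2 (0.07), Osbpl5 (0.09), Ctsl (0.09) and Ankrd24 (0.09), with H19 at rank 166. Osbpl5 lies within 500 kb of Cdkn1c and was lower in coronary libraries at both stages (-0.81 ± 0.06 and -1.72 ± 0.09). The distance rests on 4 points that share libraries and is a description.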

How the data were processed

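Poly(A) RNA of sorted cells was read as single reads on an Illumina HiSeq 2500 after NEBNext Ultra library preparation from 200 ng of total RNA, per the labels' protocols. This kit does not mark strand. Per the submitters' processing notes, the authors used CASAVA 1.8.2, cutadapt 1.3 and RSEM 1.2.3 with build GRCm38. The deposited table holds RSEM expected counts per Ensembl gene, of which 18.3% are not whole. They were rounded. Symbols and positions came from a GRCm38 annotation, matched for 40254 of 41214 identifiers.

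edgeR 4.0.16 in R 4.3.3 was fitted to all 12 libraries with 1 mean per group, TMM scaling and filterByExpr (minimum count 10), which left 15171 genes, 8 residual degrees of freedom and a between-library coefficient of variation of 0.126 shared by all genes. All 10 members passed the filter. P-values were adjusted over all genes tested by Benjamini-Hochberg, and SE is the log2 fold change divided by the square root of F. The E17 groups of 2 libraries borrow the spread of the others. Alternatives were DESeq2 1.42.0, other scalings and filters, fits of 2 groups, a batch block and leaving out each library.

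The labels give each endocardial library a batch number shared with 1 coronary library. Deviations from the group means correlated within a batch at r = 0.376, 0.682, 0.367 and 0.478 at E13 and 0.38 at E17 (across 9478 genes, which are not independent) and between -0.508 and 0.439 across E13 batches. The pair of endocardial 3 with coronary 4 (0.439) exceeded the same-batch values of batches 1 and 3. Because the labels give the batch, it was taken as a pairing, but only in the batch block and the sign-flip test. The main fit and the permutation test of the H19 to Igf2 ratio did not use it. No 2 libraries of a group were alike within sampling noise (chi-square per gene 4.39 to 39.3). Depth of each group was 17395783 to 27360653 (E13 endocardial), 17677860 to 21560343 (E13 coronary), 16371834 to 19168912 (E17 endocardial) and 14973633 to 17746457 (E17 coronary). The lowest member total in a group, that of Meg3 in E17 endocardial libraries, was 767 counts.

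Members and lists were chosen with earlier results of these data known. Genes were named by these rules: all members, partners in their clusters from 1 CPM, up to 4 genes per other list with the smallest adjusted p from 10 CPM, neighbours within 500 kb that passed with the member from 10 CPM, and the 5 genes most like H19 and Igf2. Where a rule gave many genes, some were left unnamed, and other named genes (among them Igf1, Igf1r, Igfbp4, Cdkn1b, Dnmt1, Dio3, Bmp6 and Col1a1) were chosen after their values were seen.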

Additional observations from a re-analysis of the deposited data

Results flagged for a closer look

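The coronary minus endocardial difference changed between the 2 stages for 9 of the 10 genes, by the interaction term of the edgeR fit. By that term 32.7% of all tested genes were called. On the log2 scale the E17 difference minus the E13 difference was -1.47 for H19, -1.12 for Igf2, -0.803 for Cdkn1c, -0.689 for Plagl1, -1.50 for Meg3 and -0.93 for Peg3. It was 1.31 for Dlk1, 0.778 for Grb10 and 0.929 for Mest. As given above, the calls of Cdkn1c, Meg3 and Dlk1 were lost when certain single E17 libraries were left out. For H19, Igf2, Cdkn1c, Plagl1 and Grb10 the E17 difference was in the same direction as at E13 and larger. The E17 difference was smaller than at E13 for Dlk1, and for Meg3 it did not pass at E17. For Mest and Peg3 only the E17 difference passed. Since genotype, tamoxifen, gate and batch differ between the stages, these changes cannot be told apart from theirs. None of the 20 member groups of 4 libraries held a library far enough from the others to be set aside by Dixon's test.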

How the results depend on the processing

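Over 970 member values under alternative settings, 918 kept direction and side of the threshold, 31 lost a call, 19 gained one and 2 changed sign. Leaving out single libraries moved the E17 difference of Meg3 over -0.045 to 1.302, that of Mirg over -1.43 to 0.0077, and the change of the Peg10 difference over -0.030 to 0.568. The low values of Meg3 and Peg10 came without E17 coronary replicate 1, and that of 0.0077 for Mirg without E17 endocardial replicate 1. The number of members called in endocardial libraries between stages was 10 when only these 2 groups were fitted (6 in the fit of all libraries), and 4 to 7 when single libraries were left out. Leaving out single libraries gave 8 to 9 at E13, 8 to 9 at E17, 9 to 10 in coronary libraries between stages and 6 to 9 for the change of the difference. The H19 to Igf2 ratio difference was -0.15 with batch as a replicate block, where the exact sign-flip p was 0.125, and -0.16 to -0.13 without single libraries. With the replicate block 8 members were called at E13, 10 at E17 and 9 for the change of the difference, and Meg3 at E17 was the only member call that changed. Batches lie within a stage, so the stage comparisons have no such fit. The share of all tested genes called is given here only for the main fit. The member counts under other settings therefore have no background beside them and say little on their own. Where an E17 library was left out, the lone library of its group was assumed to vary like the other groups. With 2 libraries per group, E17 values rest on a spread estimated mostly at E13.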
